A study of Mus musculus with 9 samples.

Results

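The genes described here are 30 genes of cholesterol and fatty acid synthesis, chosen by name for their known roles: 8 enzymes of the mevalonate pathway, 11 enzymes of the squalene and sterol steps, 5 regulators, 1 sterol carrier and 5 enzymes of fatty acid synthesis. They were chosen with earlier results of these data known, so shares set against all genes tested are descriptive. All 30 were found among the 47728 genes of the count files, and all 30 passed the filter on low counts, with a lowest count of 28 (Tm7sf2). The cells were C2C12, a mouse myoblast line that leaves the cell cycle and fuses into myotubes when serum is lowered, and polyA RNA was sequenced. Control cells and cells with Cry1 or Cry2 knocked down were each collected at days 0, 3 and 5, with 1 library for each of the 9 combinations. Cry1 and Cry2 encode cryptochromes, repressor proteins of the circadian clock. Day 0 cells had grown in medium with 10% fetal bovine serum, and days 3 and 5 followed a change to 5% horse serum with 1% of an insulin, transferrin and selenium supplement. The means of knockdown, and what the control cells received, were not given in the sources used here. A change with day and the change of medium cannot be told apart, and neither can a knockdown and any other difference between the cultures of a genotype.

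The libraries held 4731020 to 6412279 counts. A gene with no count may still have up to 3, which is 0.468 to 0.634 CPM (counts scaled to a library total of 1000000), and this limit covers counting error only. Each fold change is given on the log2 scale with ± its standard error, from a fit of all 9 libraries unless fewer days are named. Each knockdown had the lowest level of its own target at every day, with a log2 fold change against the control of -1.22 ± 0.22, adjusted p = 0.0265 for Cry1 in the Cry1 knockdown and -1.74 ± 0.17, adjusted p = 0.0138 for Cry2 in the Cry2 knockdown (edgeR). Skeletal muscle markers summed to 2481 to 3224 CPM at day 0 and to 14330 to 20570 CPM at days 3 and 5. Adipocyte markers summed to 6.35 to 13.2 CPM, most of it Pparg, and 3 of the 8 (Adipoq, Lep and Retn) had no count in any library. Endothelial and blood markers summed to 0.504 to 2.41 CPM and osteoblast markers to at most 0.831 CPM. In bulk RNA, fewer cells of a type and less RNA per cell cannot be told apart.

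Cholesterol is built from acetyl-CoA through mevalonate, isoprenoid units, squalene and lanosterol, in a chain of enzymes on the endoplasmic reticulum and in the cytosol. Their genes are switched on together by SREBP transcription factors, encoded by Srebf1 and Srebf2, which the escort protein SCAP carries to the Golgi for cleavage when membrane sterol is low. INSIG proteins hold SCAP back when sterol is plentiful, and Insig1 is itself a target of SREBP. Fatty acid synthesis draws on cytosolic acetyl-CoA made by ATP citrate lyase, and stearoyl-CoA desaturases put a double bond into its products. Fusing muscle cells enlarge and remodel their membranes, which are made of these sterols and lipids.

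SREBP binds sterol regulatory elements beside sites for the general factors NF-Y and Sp1, so 3 promoters of the pathway are shown. They belong to Hmgcs1, the mevalonate enzyme with the highest mean CPM, and to Tm7sf2 and Nsdhl, which had 2 of the larger rises at day 3. Each line gives the 250 bases before the transcription start in RefSeq on GRCm38.p6, from 5′ to 3′ on the gene's strand. The Tm7sf2 stretch lies inside the gene's span in the GENCODE annotation (chr19:6062821-6068373), downstream of the start given there. Of the 32 windows searched for these genes, 28 had bases after the start that match a transcript of the gene. Capitals mark the NF-Y word CCAAT, as ATTGG on the other strand, and the sterol regulatory word TCACNCCAC.
Hmgcs1 (chr13:119690101-119690350, plus strand): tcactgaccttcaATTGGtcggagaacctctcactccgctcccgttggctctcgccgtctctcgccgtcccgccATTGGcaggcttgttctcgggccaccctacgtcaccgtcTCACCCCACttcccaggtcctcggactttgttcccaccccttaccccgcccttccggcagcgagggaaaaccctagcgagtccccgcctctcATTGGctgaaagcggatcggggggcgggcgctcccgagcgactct
Tm7sf2 (chr19:6067851-6068100, minus strand): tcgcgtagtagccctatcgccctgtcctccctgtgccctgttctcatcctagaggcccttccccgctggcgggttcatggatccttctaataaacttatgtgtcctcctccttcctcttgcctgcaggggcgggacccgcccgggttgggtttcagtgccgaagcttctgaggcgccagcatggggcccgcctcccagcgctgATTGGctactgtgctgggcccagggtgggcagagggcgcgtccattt
Nsdhl (chrX:72918271-72918520, plus strand): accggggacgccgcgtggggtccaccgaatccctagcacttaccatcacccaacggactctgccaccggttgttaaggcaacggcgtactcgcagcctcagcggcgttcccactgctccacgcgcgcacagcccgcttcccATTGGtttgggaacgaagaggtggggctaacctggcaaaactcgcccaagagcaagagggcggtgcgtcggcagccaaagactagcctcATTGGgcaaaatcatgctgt
Hmgcs1 holds 3 NF-Y words and the sterol regulatory word, Tm7sf2 holds 1 NF-Y word and Nsdhl holds 2. Of the 24 genes with a promoter in the RefSeq table, 20 (83.3%) held CCAAT on either strand, against 40.9% of the 9490 tested genes with a promoter there. Among the mevalonate, squalene and sterol enzymes the word stood in 15 of 16 promoters, all but that of Acat2. The word TCACNCCAC stood in 1 of the 24 promoters (4.17%, against 1.24% of tested genes), that of Hmgcs1. GGGCGG, the Sp1 word, was in 20 (83.3%, against 64.7%), and the E-box CACGTG, which clock factors bind among others, was in 5 (20.8%, against 10.1%): Hsd17b7, Sc5d, Dhcr7, Insig1 and Scap. None of these words contains another, a gene counted if any of its annotated starts held the word, and a match describes letters, not binding. Scd1, Scd2, Fdps, Stard4, Sqle and Fdft1 were not among the promoters searched.

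Per length, the desaturases Scd2 and Scd1 stood highest of the 30 genes, with means over the 9 libraries of 494 and 275 CPM per kilobase of annotated exon. Hmgcs1 followed with 68.5 and Srebf2 with 66.0, and Tm7sf2 was the lowest with 2.72. The plot of all 30 genes by library shows 3 main shapes over the days. Most sterol enzymes had a peak at day 3. Genes such as both desaturases, Dhcr7, Ebp, Tm7sf2 and Insig2 were still above day 0 at day 5. Genes such as Stard4, Acly and Acat2 had fallen below day 0 by day 5. The shapes overlap, and some genes, such as Srebf2 and Fasn, passed no day comparison.

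**Figure D1:**
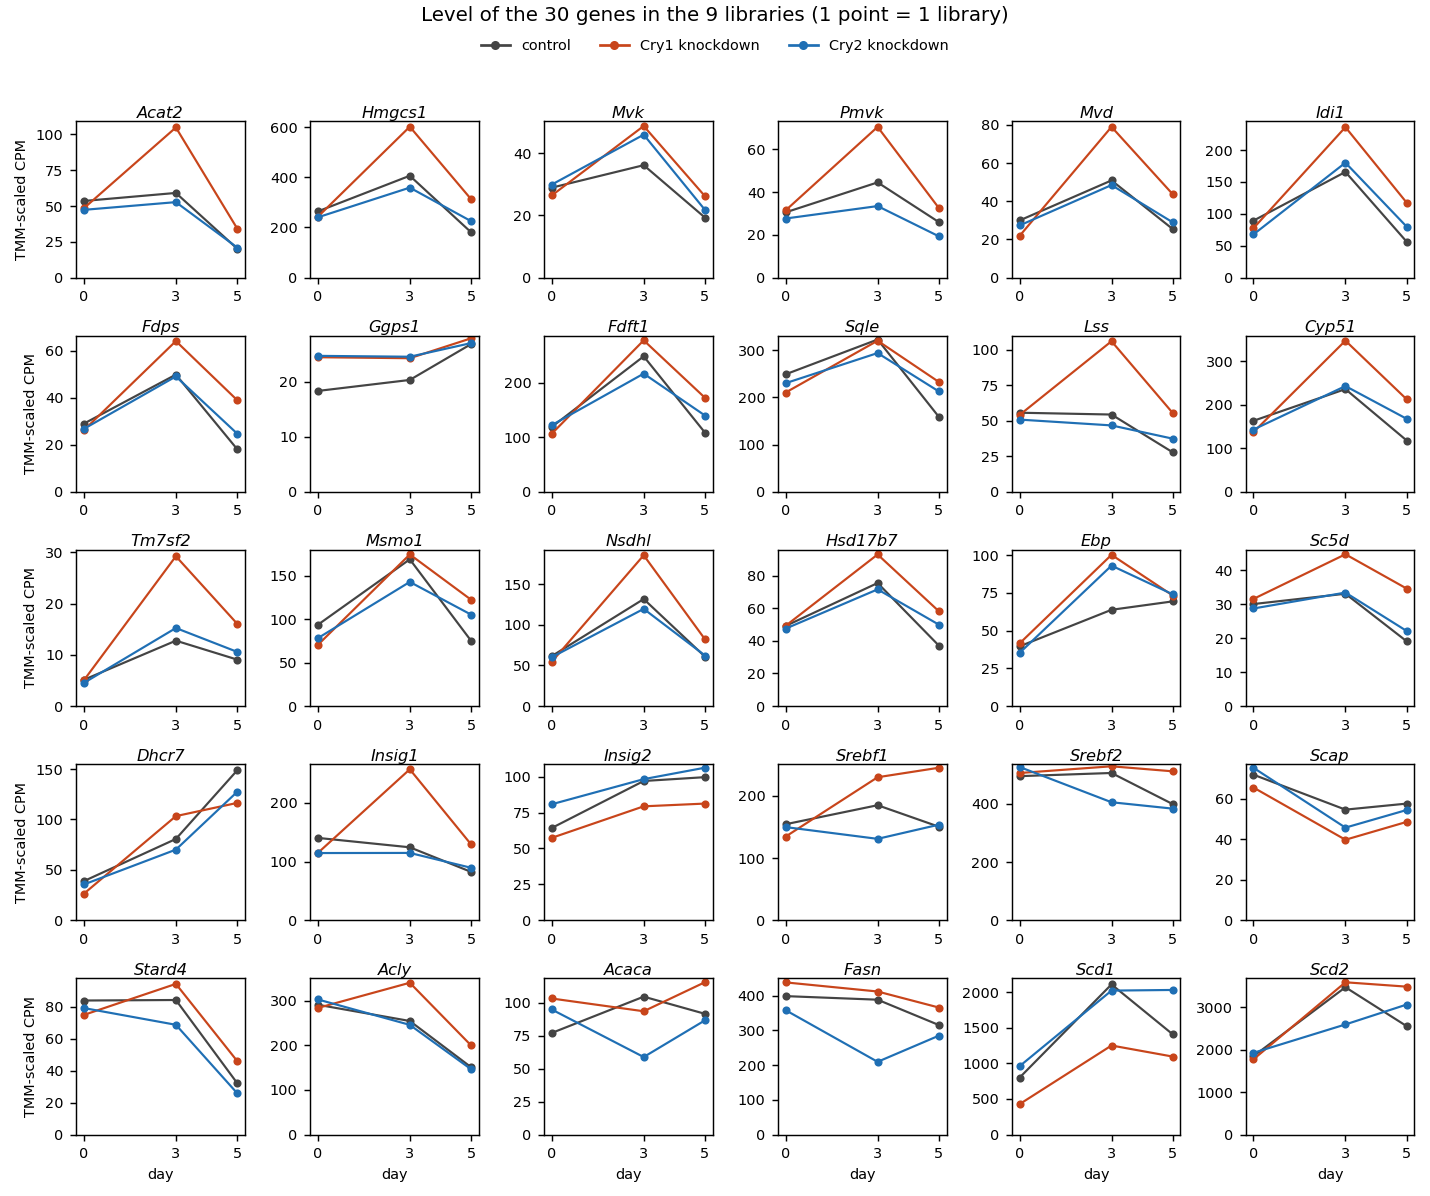
TMM-scaled CPM of each of the 30 genes (y axis, from 0, a scale of its own in each panel) at days 0, 3 and 5 (x axis), 1 point per library, coloured by genotype and joined by lines. Most sterol enzymes peak at day 3, and the Cry1 knockdown is the highest genotype at days 3 and 5 for 22 of the 30 genes.

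From day 0 to day 3, genes of the sterol pathway rose together. Over the 3 genotypes, 15 of the 19 mevalonate, squalene and sterol enzymes rose and none fell, with a median log2 fold change of 0.86 against 0.01 over all genes tested. Of all 30 genes 18 rose and 1 fell, while 25.4% of the 13094 genes tested rose and 25.7% fell (edgeR, additive fit of genotype and day, adjusted p under 0.05). From day 3 to day 5, 16 of the 19 enzymes fell and 1 rose, with a median of -0.76, and of all 30 genes 19 fell and 1 rose, where 13.2% of genes tested fell and 14.7% rose. When each library was left out in turn, 18 of the 19 calls at day 3 against day 0 held every time, and 12 of the 20 at day 5 against day 3 did. The 8 that did not were Cyp51, Dhcr7, Insig1, Lss, Msmo1, Mvd, Sc5d and Tm7sf2. Without the Cry1 knockdown at day 3 or the control at day 5, 13 of the 30 genes were called at day 5 against day 3. The share of all genes called in those refits is not given here. The lower count is therefore not read as particular to the 30 genes. Highest at day 3 in each of the 3 genotypes were 15 of the 30 genes, all of them among the 19 enzymes, against 10.6% of genes tested. That pattern was chosen after the values were seen, and the enzymes without it were Dhcr7, Ebp, Ggps1 and Lss.

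The mevalonate enzymes start with Acat2, a cytosolic thiolase that joins acetyl-CoA units. Acat2 read 53.5, 59.1 and 20.2 CPM in control cells of days 0, 3 and 5, 48.5, 105 and 34.2 with Cry1 knocked down, and 47.3, 52.7 and 21 with Cry2 knocked down. It was low at day 5 in all genotypes, below every day 0 and day 3 value, and the fall from day 3 was -1.51 ± 0.19, adjusted p = 0.00126. Its day 3 level was high only in the Cry1 knockdown, and the change from day 0 to day 3 (0.47 ± 0.18, adjusted p = 0.053) missed the threshold. Of the 50-base words of its transcript, 45.9% also occur in other genes, mainly Acat3, so reads may be split between them.

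Hmgcs1 (chr13:119690379-119708260, plus strand) encodes the cytosolic synthase that makes HMG-CoA. Its level was 264, 407 and 181 CPM in control cells of days 0, 3 and 5, 243, 603 and 313 with Cry1 knocked down, and 240.5, 359 and 225 with Cry2 knocked down. Every day 3 value lay above every day 0 value and every day 5 value, with a rise of 0.83 ± 0.16, adjusted p = 0.00249 and then a fall of -0.93 ± 0.16, adjusted p = 0.00411. The gene model Gm48342 overlaps 12.1% of its exon bases on the opposite strand. Mvk, mevalonate kinase, was at 28.9, 36.1 and 19.3 CPM in control cells of days 0, 3 and 5, 26.4, 48.7 and 26.1 with Cry1 knocked down, and 29.9, 45.9 and 21.7 with Cry2 knocked down. Its groups by day did not overlap in any of the comparisons, and it rose by 0.61 ± 0.13, adjusted p = 0.00335 and changed from day 3 to day 5 by -0.96 ± 0.13, adjusted p = 0.00148.

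Pmvk (chr3:89454541-89469013, plus strand), phosphomevalonate kinase, read 30.5, 44.5 and 25.9 CPM in control cells of days 0, 3 and 5, 31.4, 70.5 and 32.5 with Cry1 knocked down, and 27.6, 33.4 and 19.3 with Cry2 knocked down. The peak at day 3 was present in each genotype, tallest in the Cry1 knockdown, with 0.68 ± 0.15, adjusted p = 0.00497 into day 3 and -0.91 ± 0.16, adjusted p = 0.00367 out of it. Mvd, the decarboxylase that yields isopentenyl diphosphate, read 29.9, 50.9 and 25.4 CPM in control cells of days 0, 3 and 5, 21.8, 79 and 43.6 with Cry1 knocked down, and 27.3, 48.5 and 28.9 with Cry2 knocked down. It rose at day 3 by 1.14 ± 0.21, adjusted p = 0.00187, and again no day 3 value overlapped the other days.

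Idi1, the isomerase of that unit, gave 89.3, 166 and 56.1 CPM in control cells of days 0, 3 and 5, 77.4, 236 and 117 with Cry1 knocked down, and 67.7, 180.3 and 79.8 with Cry2 knocked down. Among the mevalonate enzymes its rise at day 3 had the highest estimate (1.28 ± 0.19, adjusted p = 0.000512), and its fall to day 5 was -1.22 ± 0.19, adjusted p = 0.00255. Of its 50-base words 30.5% are shared with other genes, mainly the gene model Gm13502. Fdps, farnesyl diphosphate synthase, stood at 29, 49.9 and 18.1 CPM in control cells of days 0, 3 and 5, 26.2, 64.2 and 39 with Cry1 knocked down, and 26.8, 49.1 and 24.8 with Cry2 knocked down. It followed the same course, with 0.97 ± 0.18, adjusted p = 0.00209 and -1.01 ± 0.19, adjusted p = 0.00515, and 26.7% of its exon bases are overlapped, mainly by the gene model Gm43738 on the same strand. Ggps1, which makes the geranylgeranyl group for protein prenylation, departed from the others. Its values ran from 18.3 CPM in the control at day 0 to 27.9 CPM in the Cry1 knockdown at day 5, with 0.04 ± 0.11, adjusted p = 0.793 at day 3 and 0.29 ± 0.11, adjusted p = 0.0538 at day 5 against day 0.

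Squalene synthase, Fdft1, commits the pathway to sterols. Fdft1 read 119, 248 and 108 CPM in control cells of days 0, 3 and 5, 106, 278 and 172 with Cry1 knocked down, and 122, 216 and 139.7 with Cry2 knocked down. The day 3 values were the highest in each genotype and did not overlap the other days (1.09 ± 0.15, adjusted p = 0.000301, then -0.83 ± 0.15, adjusted p = 0.00411). Its locus overlaps Ctsb on the opposite strand over 18.3% of its exon bases, and since strand use in the counting was not given, reads of both may be mixed. Sqle, squalene epoxidase, a rate-limiting oxidase, had the highest mean CPM of the 11 squalene and sterol enzymes, with 249, 322 and 158 CPM in control cells of days 0, 3 and 5, 210.2, 319.9 and 232 with Cry1 knocked down, and 230.0, 294 and 212 with Cry2 knocked down. Its rise was smaller (0.44 ± 0.14, adjusted p = 0.023) and was lost when any of 4 libraries was left out, with an adjusted p of up to 0.108. The libraries were the Cry1 knockdown at days 0 and 3, the Cry2 knockdown at day 0 and the control at day 3. The fall to day 5 (-0.64 ± 0.14, adjusted p = 0.00952) passed in every such fit.

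Lss, lanosterol synthase, closes the sterol rings. It read 55.7, 54.4 and 27.8 CPM in control cells of days 0, 3 and 5, 54.1, 106 and 55.4 with Cry1 knocked down, and 50.9, 46.8 and 37.4 with Cry2 knocked down. Only the Cry1 knockdown showed a day 3 peak among these values, while in the control and the Cry2 knockdown day 3 was slightly below day 0. Over the genotypes the change at day 3 was 0.28 ± 0.21, adjusted p = 0.281, and the fall to day 5 was -0.76 ± 0.21, adjusted p = 0.028. Cyp51, the lanosterol demethylase, read 163, 236 and 118 CPM in control cells of days 0, 3 and 5, 137, 347 and 212 with Cry1 knocked down, and 143, 243 and 167 with Cry2 knocked down. Its course matched that of Hmgcs1 in shape, with 0.86 ± 0.18, adjusted p = 0.00313 and then -0.74 ± 0.18, adjusted p = 0.0148.

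Tm7sf2 (chr19:6062821-6068373, minus strand), a sterol reductase, had the largest log2 fold change of the 30 genes from day 0 to day 3. It read 5.13, 12.8 and 9.07 CPM in control cells of days 0, 3 and 5, 5.04, 29.3 and 16.1 with Cry1 knocked down, and 4.52, 15.2 and 10.6 with Cry2 knocked down. The rise was 1.90 ± 0.22, adjusted p = 0.00013, every day 3 and day 5 value stood above every day 0 value, and at day 5 it remained 1.24 ± 0.23, adjusted p = 0.00147 against day 0. Over 12.1% of its exon bases it is overlapped by Vps51 on the same strand. Msmo1, a sterol methyl oxidase, read 93.4, 169 and 75 CPM in control cells of days 0, 3 and 5, 70.3, 174 and 122 with Cry1 knocked down, and 78, 143 and 105 with Cry2 knocked down. It peaked at day 3 in each genotype (1.00 ± 0.18, adjusted p = 0.00138, then -0.69 ± 0.17, adjusted p = 0.0193).

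Nsdhl (chrX:72918557-72958514, plus strand), the sterol dehydrogenase that works with Msmo1, read 61.4, 132 and 60.7 CPM in control cells of days 0, 3 and 5, 54.4, 186 and 82.1 with Cry1 knocked down, and 60.1, 119.6 and 62.2 with Cry2 knocked down. At day 3 it rose by 1.28 ± 0.14, adjusted p = 9.12e-05, and by day 5 it had returned to within 0.20 ± 0.14 of day 0 on the log2 scale. Hsd17b7, the ketoreductase of the same complex, was at 49.1, 75.4 and 37 CPM in control cells of days 0, 3 and 5, 49.2, 93 and 58.1 with Cry1 knocked down, and 47.5, 71.5 and 49.9 with Cry2 knocked down. It had the same shape with a smaller rise (0.71 ± 0.12, adjusted p = 0.00133).

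Ebp, a sterol isomerase, read 39.6, 63.8 and 69.4 CPM in control cells of days 0, 3 and 5, 41.5, 100.3 and 73.3 with Cry1 knocked down, and 35.2, 93.1 and 74.1 with Cry2 knocked down. It rose at day 3 (1.13 ± 0.14, adjusted p = 0.00016) and, unlike most of the enzymes, was still above day 0 at day 5 (0.90 ± 0.14, adjusted p = 0.000458), with no overlap between those days. Sc5d, a sterol desaturase, read 30.1, 33.1 and 19.1 CPM in control cells of days 0, 3 and 5, 31.6, 44.7 and 34.6 with Cry1 knocked down, and 28.8, 33.4 and 22.1 with Cry2 knocked down. Its rise (0.28 ± 0.14, adjusted p = 0.113) missed the threshold, and its fall to day 5 was -0.57 ± 0.14, adjusted p = 0.0176.

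Dhcr7 (chr7:143823145-143848410, plus strand), the reductase of the last step to cholesterol, was the 1 enzyme of the 19 called as rising from day 3 to day 5. It read 38.9, 80.7 and 149 CPM in control cells of days 0, 3 and 5, 26.4, 103 and 116 with Cry1 knocked down, and 35.5, 70.1 and 127 with Cry2 knocked down. The level climbed from day 0 to 3 to 5 in every genotype with no overlap between days, by 1.34 ± 0.18, adjusted p = 0.000275, then 0.62 ± 0.17, adjusted p = 0.0242, and 1.96 ± 0.18, adjusted p = 1.62e-05 over the whole course. Its day 5 against day 3 call was lost without the control at day 3 or 5 or the Cry2 knockdown at day 3 or 5 (adjusted p of up to 0.13).

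**Figure D2:**
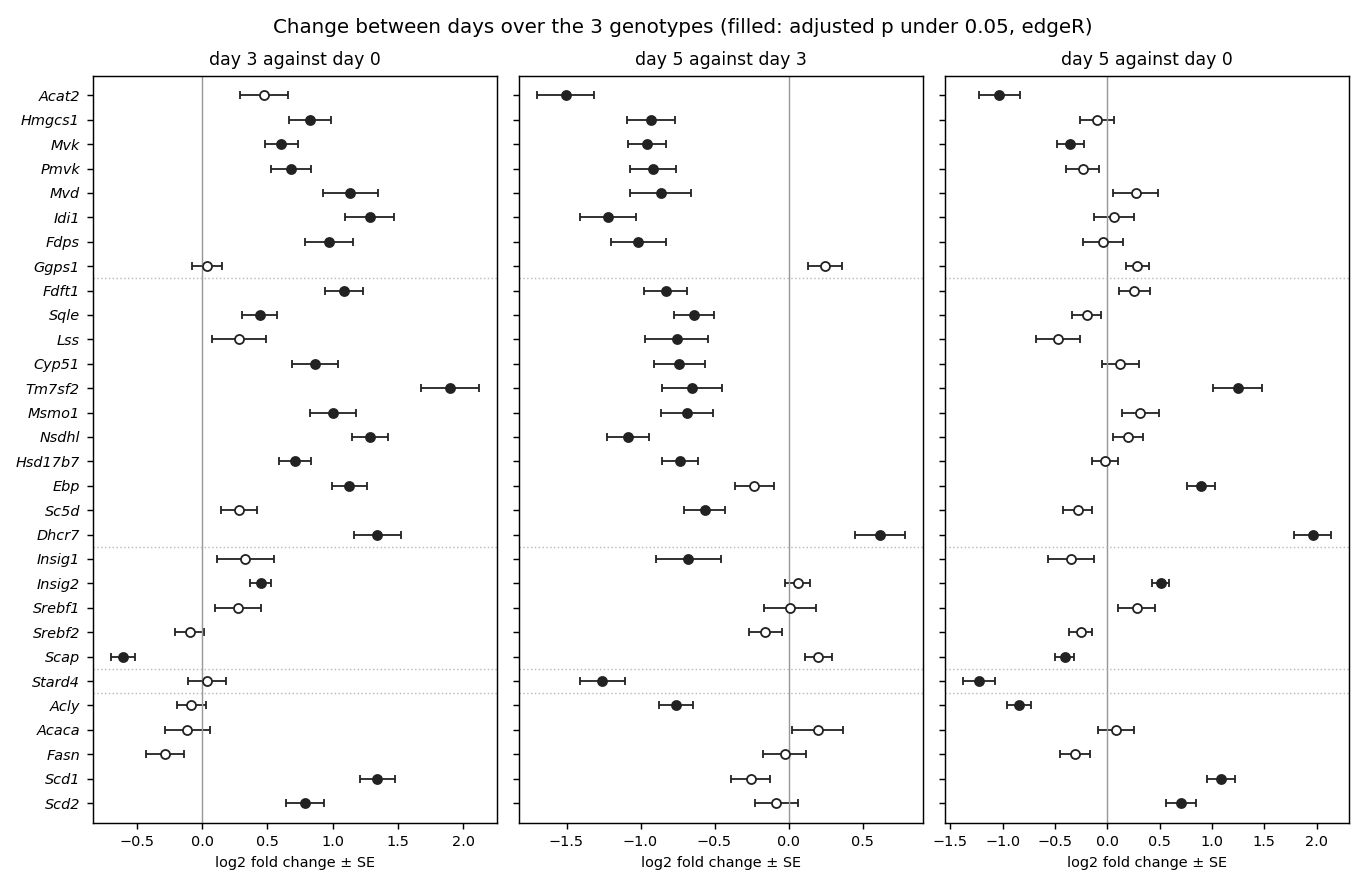
Log2 fold change ± SE of each of the 30 genes between days, over the 3 genotypes (x axes, one scale per panel), with genes ordered by role and dotted lines between roles. Filled points pass an adjusted p of 0.05 in edgeR. All 19 enzymes of the sterol pathway are right of 0 at day 3 against day 0, and 17 of them are left of 0 at day 5 against day 3.

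Of the 5 regulators, Insig2 rose and Scap fell by day 3, and Insig1 fell between days 3 and 5. Insig1 read 140.3, 124 and 82.4 CPM in control cells of days 0, 3 and 5, 115, 257 and 129 with Cry1 knocked down, and 114, 115 and 89.4 with Cry2 knocked down. Its day 3 value was high only in the Cry1 knockdown, so the days overlapped, and the change at day 3 was 0.33 ± 0.22, adjusted p = 0.235. The fall to day 5 (-0.68 ± 0.22, adjusted p = 0.0478) was lost when any of 6 libraries was left out, all but the control at days 0 and 3 and the Cry1 knockdown at day 0 (adjusted p of up to 0.241).

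Insig2 (chr1:121304353-121332589, minus strand), a retention protein like Insig1, read 64.2, 96.9 and 99.6 CPM in control cells of days 0, 3 and 5, 57.4, 79.3 and 81.2 with Cry1 knocked down, and 80.8, 98.2 and 106 with Cry2 knocked down. It rose into day 3 (0.45 ± 0.08, adjusted p = 0.00194) and held that level at day 5. Scap, the sterol sensor and escort of SREBP, read 71.8, 54.6 and 57.6 CPM in control cells of days 0, 3 and 5, 65.5, 39.7 and 48.6 with Cry1 knocked down, and 75.3, 45.7 and 54.4 with Cry2 knocked down. It fell at day 3 in every genotype (-0.61 ± 0.09, adjusted p = 0.000553), with no overlap with day 0, and was still lower at day 5 (-0.41 ± 0.09, adjusted p = 0.00396). An antisense gene, 5830462I19Rik, overlaps 13.2% of its exon bases. Srebf2, the SREBP gene tied to sterol synthesis, had the highest mean CPM of the regulators, with 496, 506 and 399 CPM in control cells of days 0, 3 and 5, 506, 529 and 512 with Cry1 knocked down, and 527, 406 and 384 with Cry2 knocked down. Its days overlapped and no day comparison passed (-0.10 ± 0.11, adjusted p = 0.497 at day 3). Srebf1, tied more to fatty acid synthesis, ran from 131 to 245 CPM, and no day comparison passed either (0.27 ± 0.18, adjusted p = 0.231 at day 3).

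Stard4, a cytosolic carrier of sterol between membranes, read 84, 84.3 and 32.2 CPM in control cells of days 0, 3 and 5, 75, 94.4 and 46.1 with Cry1 knocked down, and 79.3, 68.8 and 25.9 with Cry2 knocked down. Day 0 and day 3 overlapped, and day 5 lay below both in all genotypes, with a fall from day 3 of -1.26 ± 0.15, adjusted p = 0.00104.

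The fatty acid synthesis genes split into separate courses. Both desaturases rose at day 3 and stayed up, while the enzymes that supply and build the chain did not rise. Scd2 (chr19:44293674-44306864, plus strand) read 1845, 3468 and 2551 CPM in control cells of days 0, 3 and 5, 1771, 3585 and 3482 with Cry1 knocked down, and 1924, 2592 and 3061 with Cry2 knocked down. All values at days 3 and 5 stood above all at day 0 (0.79 ± 0.15, adjusted p = 0.0018 at day 3, 0.71 ± 0.15, adjusted p = 0.00268 at day 5). Scd1 (chr19:44394455-44407879, minus strand), on the same chromosome, read 799.6, 2111 and 1408 CPM in control cells of days 0, 3 and 5, 427, 1252 and 1096 with Cry1 knocked down, and 961, 2024 and 2033 with Cry2 knocked down. It too had no overlap between day 0 and either later day (1.34 ± 0.13, adjusted p = 4.84e-05 at day 3, 1.09 ± 0.13, adjusted p = 0.000111 at day 5). Of the 50-base words of Scd1 4.7% occur in other genes, mainly Scd3.

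Acly, ATP citrate lyase, read 291, 254 and 151 CPM in control cells of days 0, 3 and 5, 284, 340.2 and 199.7 with Cry1 knocked down, and 303, 246 and 146 with Cry2 knocked down. It fell between days 3 and 5 in each genotype (-0.76 ± 0.12, adjusted p = 0.00231), and no day 5 value reached the lowest value of the earlier days. Fasn, fatty acid synthase, ranged from 209 to 438 CPM, and Acaca, acetyl-CoA carboxylase, from 58.9 to 116 CPM. Neither passed a day comparison (-0.28 ± 0.14, adjusted p = 0.128 and -0.11 ± 0.17, adjusted p = 0.611 at day 3), and 52.6% of the 50-base words of Acaca also occur in other genes, mainly Gm5182.

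Against day 0, day 5 left the pathway mixed. Dhcr7, Ebp, Insig2, Scd1, Scd2 and Tm7sf2 had risen and Acat2, Acly, Mvk, Scap and Stard4 had fallen, 6 and 5 of the 30 genes, where 28.3% of genes tested had risen and 27.9% had fallen. The median over the 30 genes was 0.02 on the log2 scale, and that over the 19 sterol enzymes was 0.06. Mvk (-0.35 ± 0.13, adjusted p = 0.0465) lost its call when any of 6 libraries was left out, all but the control at day 3 and the Cry1 knockdown at days 0 and 5 (adjusted p of up to 0.208). Over the same days the summed skeletal muscle markers rose from 2481 to 19050 CPM in control cells, from 3224 to 19740 CPM with Cry1 knocked down and from 2561 to 20570 CPM with Cry2 knocked down, and the part of cell makeup in the changes by day was not tested.

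In the Cry1 knockdown against the control, Scd1 fell and no other of the 30 genes passed the threshold. At days 0, 3 and 5 Scd1 was at 427, 1252 and 1096 CPM with Cry1 knocked down and at 799.6, 2111 and 1408 CPM in control cells, lower at every day, although the ranges over the days overlap. The difference was -0.68 ± 0.13, adjusted p = 0.0366 (edgeR), where 1.73% of genes tested fell and 0.932% rose. The call did not survive the loss of a library in 7 of 9 cases (adjusted p of up to 0.145), all but those of the Cry2 knockdown at days 0 and 3. Scd2, its paralog, differed by 0.14 ± 0.14, adjusted p = 0.644.

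The remaining values leaned the other way. Of the 30 genes 26 were higher in the Cry1 knockdown, 18 of them among the 19 sterol enzymes, as were 52.4% of genes tested. The median log2 fold change of the 30 genes was 0.27 where the median over all genes tested was 0.01. Of all 30 genes, 12 had an unadjusted p under 0.05, as did 19% of genes tested. The highest estimates were Tm7sf2 (0.77 ± 0.21, adjusted p = 0.0985), Lss (0.64 ± 0.21, adjusted p = 0.142), Insig1 (0.49 ± 0.22, adjusted p = 0.268) and Acat2 (0.48 ± 0.18, adjusted p = 0.203). The lower ones beside Scd1 were Scap (-0.28 ± 0.09, adjusted p = 0.144), Insig2 (-0.25 ± 0.08, adjusted p = 0.148) and Dhcr7 (-0.15 ± 0.17, adjusted p = 0.684).

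Split by day, the lean was present at days 3 and 5 and absent at day 0. Set against the control of the same day, the 30 genes had a median log2 ratio of -0.14 at day 0, with 8 genes higher and 22 lower. It was 0.36 at day 3, with 25 higher and 5 lower, and 0.53 at day 5, with 26 higher and 4 lower. The medians over all genes tested were 0.02, -0.01 and 0.02. For the 19 sterol enzymes the medians were -0.14, 0.49 and 0.70. At day 3 Tm7sf2 had a log2 ratio of 1.19 and Insig1 of 1.05, and at day 5 Fdps had 1.10. Scd1 was the lowest of the 30 genes at each day, at -0.90, -0.75 and -0.36. Each of these ratios sets 1 library against 1, so none has a test.

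At both days 3 and 5 the Cry1 knockdown was the highest of the 3 genotypes for 22 of the 30 genes, against 18.8% of genes tested, a pattern chosen after the values were seen. The exceptions were Acaca, Dhcr7, Ebp, Ggps1, Insig2, Scap, Scd1 and Sqle. A fit of days 3 and 5 only, also chosen after seeing the data, called 1 gene: Acat2 rose by 0.80 ± 0.12 (adjusted p = 0.0482), where 0.166% of the 12622 genes tested rose. Scd1 did not pass there (-0.57 ± 0.15, adjusted p = 0.14). The sum of the skeletal muscle markers was also higher in the Cry1 knockdown than in the control. It was 3224 against 2481 CPM on day 0, 19090 against 14330 CPM on day 3 and 19740 against 19050 CPM on day 5. Single markers did not all follow the sum. On day 0 Acta1, Myog, Ckm, Myh3 and Ttn stood at 3.119, 3.063, 2.935, 2.625 and 2.357 times the control. Myod1, Cdh15 and Des stood at 1.451, 1.29 and 0.998 times it on that day. On day 3 Myod1, Cdh15 and Ttn stood at 0.83, 0.90 and 0.92 times the control, while Acta1, Ckm, Des, Myh3 and Myog stood above it. Over the days only Ckm of these markers was called (0.84 ± 0.18, adjusted p = 0.0452, edgeR). Their part in these values was not tested.

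**Figure D3:**
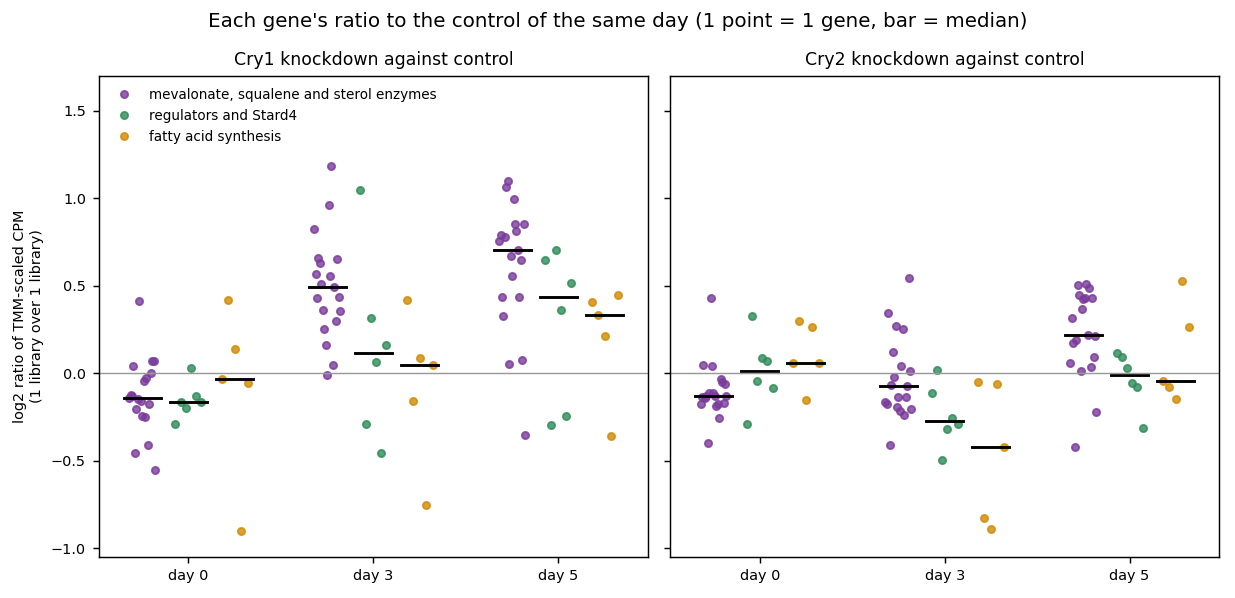
Log2 ratio of each of the 30 genes to the control of the same day (y axis) at days 0, 3 and 5 (x axis), for the Cry1 knockdown (left) and the Cry2 knockdown (right). A point is a gene, 1 library over 1 library, coloured by role, and a bar is the median of the role. In the Cry1 knockdown the median of the sterol enzymes lies at -0.14, 0.49 and 0.70, and in the Cry2 knockdown at -0.13, -0.08 and 0.22.

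In the Cry2 knockdown against the control, none of the 30 genes passed the threshold in edgeR, 1 had an unadjusted p under 0.05, and DESeq2 called none. Of all genes tested 0.084% were called and 12.2% had an unadjusted p under 0.05, so the 1 gene is below the background share. That gene was Fasn, at 358, 209 and 285 CPM at days 0, 3 and 5 against 398, 388 and 315 CPM in the control, with a difference of -0.38 ± 0.14, adjusted p = 0.336. Its gap was widest at day 3. The median over the 30 genes was -0.01, with 14 higher and 16 lower. Day by day the median log2 ratio was -0.10, -0.14 and 0.15, and at day 3 all 5 fatty acid synthesis genes were below the control, with a median of -0.42. At day 5, 17 of the 19 sterol enzymes were above the control, with a median of 0.22, as were 6863 of the 13094 genes tested. The medians over all genes tested were -0.01, -0.0003 and 0.02 at days 0, 3 and 5. These ratios too set 1 library against 1 and have no test. Mitochondrially encoded genes summed to 11440, 22130 and 21930 CPM at days 0, 3 and 5 in the Cry2 knockdown and to 6533, 13680 and 22230 CPM in the control. In the Cry1 knockdown they summed to 8740, 16490 and 20470 CPM, also above the control at days 0 and 3. The part of these genes in the values above was not tested.

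Between the knockdowns 3 of the 30 genes differed. Scd1 was higher in the Cry2 knockdown than in the Cry1 knockdown at every day, at 961, 2024 and 2033 against 427, 1252 and 1096 CPM, by 0.92 ± 0.13, adjusted p = 0.00583. This call held whichever library was left out (adjusted p of up to 0.0354). Insig2 was also higher at every day, at 80.8, 98.2 and 106 against 57.4, 79.3 and 81.2 CPM (0.40 ± 0.08, adjusted p = 0.0249). Pmvk was lower at every day, at 27.6, 33.4 and 19.3 against 31.4, 70.5 and 32.5 CPM (-0.68 ± 0.16, adjusted p = 0.0324). Of all genes tested 4.24% rose and 3.69% fell.

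Insig2 lost its call without any single library of either knockdown (adjusted p of up to 0.106). For Pmvk the call was lost without the control at day 0 or without a day 3 or day 5 library of either knockdown (adjusted p of up to 0.159). All 19 sterol enzymes had lower estimates in the Cry2 knockdown than in the Cry1 knockdown, with a median of -0.32. Over all genes tested 6835 of 13094 were lower, with a median of -0.02. An unadjusted p under 0.05 was found for 13 of the 30 genes, as for 25.8% of genes tested. With days 3 and 5 only, 9 of the 30 genes fell and 1 rose, where 1.81% of genes tested fell and 2.21% rose. Those that fell were Acat2, Acly, Insig1, Lss, Mvd, Nsdhl, Pmvk, Srebf1 and Stard4, from -0.93 ± 0.14 (adjusted p = 0.0232) for Pmvk to -0.46 ± 0.09 (adjusted p = 0.0432) for Acly, and Scd1 rose. Without the Cry1 knockdown at day 0, 11 fell and 1 rose, and calls over all genes in that refit are not given here. Both comparisons with the Cry1 knockdown share its libraries.

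**Figure D4:**
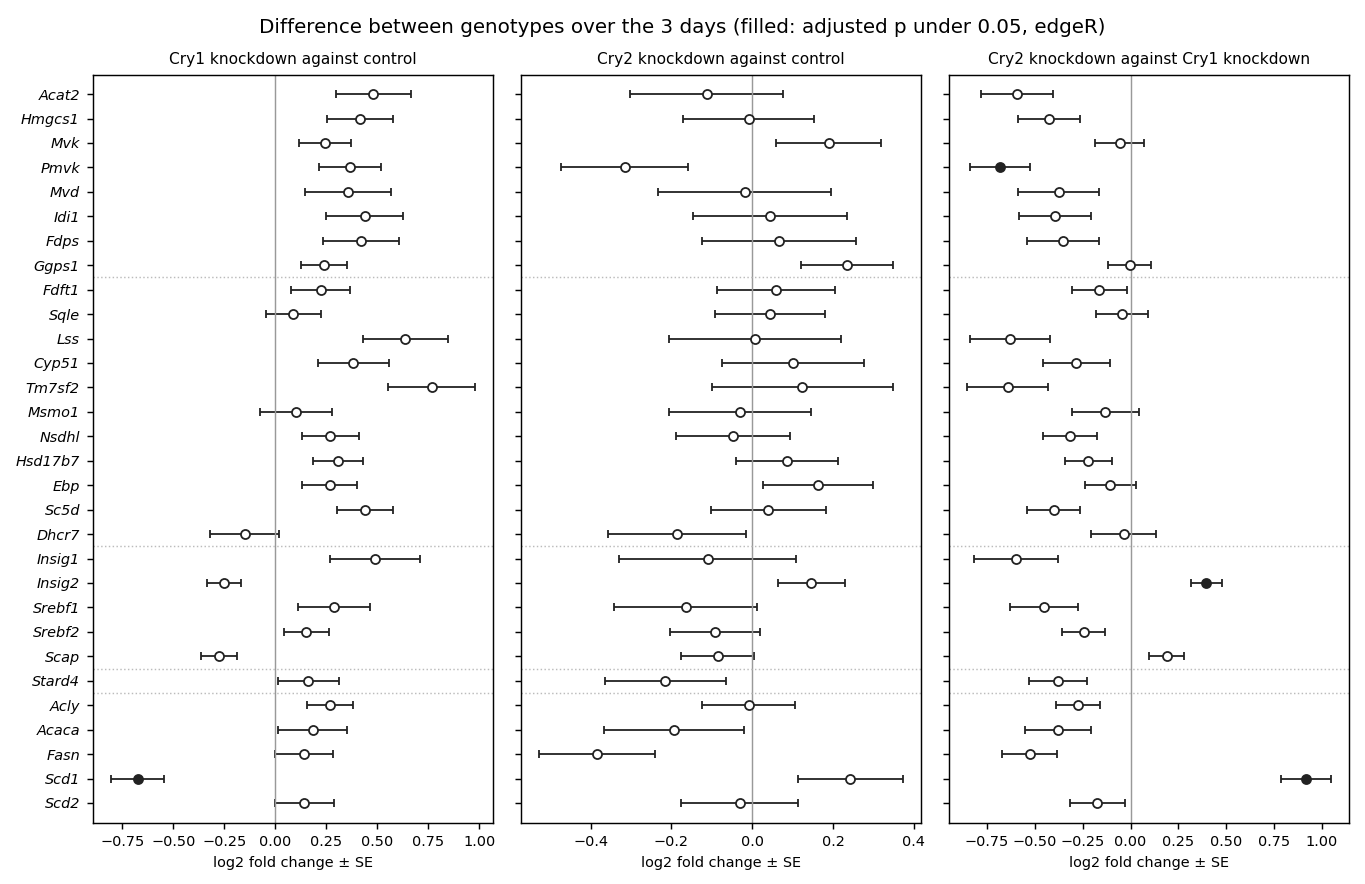
Log2 fold change ± SE of each of the 30 genes between genotypes, over the 3 days (x axes, one scale per panel), with genes ordered by role and dotted lines between roles. Filled points pass an adjusted p of 0.05 in edgeR: Scd1 in the left panel, none in the middle, and Pmvk, Insig2 and Scd1 in the right panel.

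Whether the change from day 0 to days 3 and 5 differed between a knockdown and the control was tested as an interaction. For the Cry1 knockdown none of the 30 genes passed in edgeR, 15 had an unadjusted p under 0.05 and DESeq2 called none, and of the 13608 genes tested 0% were called and 4.92% had an unadjusted p under 0.05. The estimates were higher for 26 of the 30 genes and for 46.7% of genes tested. The median log2 difference was 0.56 over the 30 genes against -0.02 over all genes tested. Mvd (1.16 ± 0.21, adjusted p = 0.336), Insig1 (1.16 ± 0.26, adjusted p = 0.59), Tm7sf2 (1.06 ± 0.38, adjusted p = 0.961) and Lss (1.02 ± 0.28, adjusted p = 0.782) had the highest. The number of the 30 genes passing rose when the control at day 3 or day 5 was left out. Each of those refits leaves 1 control library for the later days. Calls over all genes in them are not given here, so the rise is not read as particular to the 30 genes. For the Cry2 knockdown none passed in edgeR either, 2 had an unadjusted p under 0.05, DESeq2 called none, and of the genes tested 0.0367% were called and 6.01% had an unadjusted p under 0.05, so the 2 are near the background share. They were Idi1 (0.70 ± 0.24, adjusted p = 0.796) and Acaca (-0.75 ± 0.29, adjusted p = 0.796), and the median was 0.07.

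Other genes of lipid synthesis, sterol handling and isoprenoid branches were counted in the same comparisons. Of 38 such genes found, 36 were tested. From day 0 to day 3, 10 rose and 4 fell, where 25.4% of genes tested rose and 25.7% fell, so the share that rose is near the background. The largest changes were in Acsl3, an acyl-CoA synthetase (1.63 ± 0.14, adjusted p = 1.85e-05), Gpam, the first acyltransferase of glycerolipid synthesis (1.08 ± 0.12, adjusted p = 0.000118), Elovl6, a fatty acid elongase (-0.96 ± 0.15, adjusted p = 0.000816), and Acss2, acetyl-CoA synthetase (0.88 ± 0.26, adjusted p = 0.0204). From day 3 to day 5, 6 rose and 6 fell, where 14.7% of genes tested rose and 13.2% fell, again near the background. The cholesterol exporters Abca1 (1.79 ± 0.26, adjusted p = 0.00187) and Abcg1 (0.85 ± 0.27, adjusted p = 0.0421) rose. Both were low, at 1.905 to 13.42 and 3.81 to 13.07 CPM over the 9 libraries, and a link to the fall of the sterol enzymes was not tested. Elovl6 (-1.24 ± 0.17, adjusted p = 0.00166) and Fads2, a desaturase of polyunsaturated chains (-0.71 ± 0.16, adjusted p = 0.0104), fell. Against day 0, day 5 had 14 up and 10 down, where 28.3% of genes tested rose and 27.9% fell, with the largest changes in Elovl6 (-2.20 ± 0.17, adjusted p = 5.99e-06), Pdss1 of ubiquinone synthesis (-1.75 ± 0.32, adjusted p = 0.0014), Gpam (1.74 ± 0.12, adjusted p = 3.74e-06) and Acsl3 (1.57 ± 0.14, adjusted p = 1.34e-05). Pdss1 was also low, at 1.481 to 12.75 CPM over the 9 libraries. Highest at day 3 in each genotype were 4 of the 36, 11.1% against 10.6% of genes tested. In the genotype comparisons none of the 36 was called in edgeR, 1 in each had an unadjusted p under 0.05, where 12.2% to 25.8% of genes tested did, and DESeq2 called none.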

How the data were processed

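PolyA RNA of 9 C2C12 libraries, 1 per genotype and day, was sequenced on an Illumina HiSeq2500 after TruSeq RNA v2 preparation, per the labels' protocols. The deposited values are the authors' raw counts per gene, and the submitters' processing notes name CASAVA 1.8, HISAT2 2.0.2, featureCounts 1.4.6 of Subread and the mm10 build. Strand use in the counting is not given in the sources used here. Totals ran from 4731020 to 6412279 counts, and floors and counts cover counting error only.

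Groups came from the labels. Counts were tested with edgeR 4.0.16 (R 4.3.3, limma 3.58.1): TMM scaling, filterByExpr on the design matrix, quasi-likelihood F tests, and Benjamini-Hochberg adjustment over all genes tested, with adjusted p under 0.05 as the threshold. Genotypes and days were compared in 1 additive model of the 9 libraries (13094 genes, leaving 4 residual degrees of freedom). The interaction fit set day 0 against days 3 and 5 by genotype, with 1 common day 5 term (13608 genes, leaving 2 residual degrees of freedom). No genotype and day has a replicate, so p-values set a difference against its disagreement between days or between genotypes. That disagreement may be technical. A genotype difference that changes with day also adds to it and widens the SE of the additive fit. SE is the size of the log2 fold change over the root of its F statistic. CPM is TMM-scaled, and log2 ratios within a day used a prior count of 1. Scripts were tested on simulated data.

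The 30 genes and the lists were chosen with earlier results of these data known. Named were all 30 genes, up to 4 other pathway genes with the largest changes past the threshold per comparison, and Cry1 and Cry2. Of 39 other pathway genes listed, 38 were found by symbol. Positions, exon lengths and overlaps come from GENCODE on mm10, and shared words are 50 bases long, searched in the transcripts of other genes. Promoters are RefSeq's on GRCm38.p6. Alternatives were RLE size factors, no filter, a filter of 1 CPM in 3 libraries, DESeq2 1.42.0, a model with genotype alone or day alone, the 6 libraries of a comparison alone, each library left out, day as a number in the interaction, a prior count of 5, and, chosen after seeing the data, days 3 and 5 only. Tables and figures were made in Python 3.11.15 (numpy 2.4.6, matplotlib 3.10.9, pandas 2.3.3).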

Additional observations from a re-analysis of the deposited data

Results flagged for a closer look

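The Cry1 and Cry2 knockdowns differed from each other, by the test of the difference itself, in 3 of the 30 genes. On the log2 scale, Cry2 knockdown against Cry1 knockdown, Scd1 differed by 0.92 ± 0.13 (adjusted p = 0.00583, edgeR) and Insig2 by 0.40 ± 0.08 (adjusted p = 0.0249), both higher at each of the 3 days. Pmvk differed by -0.68 ± 0.16 (adjusted p = 0.0324), lower at each of the 3 days. Against the control and over the 3 days, the estimates of Scd1 lay on opposite sides in the 2 knockdowns. They were -0.68 ± 0.13 in the Cry1 knockdown (adjusted p = 0.0366) and 0.24 ± 0.13 in the Cry2 knockdown (adjusted p = 0.497), and both comparisons share the control libraries. At day 3 alone Scd1 in the Cry2 knockdown was slightly below the control, at 2024 against 2111 CPM. With 1 library per genotype and day, no group could be searched for a library that stands apart.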

How the results depend on the processing

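Of 50 calls between days, 40 kept their side of the threshold under every alternative run, and no call of either kind changed direction. Of the 4 calls between genotypes none did so. Scd1 between the knockdowns held in 15 of its 16 alternatives, Pmvk in 9, Insig2 in 7, and Scd1 in the Cry1 knockdown against the control in 6. For the Cry1 knockdown against the control, 1 of the 30 genes was called. That count was 3 without a filter on low counts, 0 without the day term and 0 with only the 6 libraries compared, and it ran from 0 to 3 with a library left out. The 3 genes between the knockdowns became 10 without the filter, 0 without the day term and 10 with days 3 and 5 only, and 1 to 12 with a library left out. At day 5 against day 3 the 20 became 13 to 20 with a library left out, and the other day counts stayed within 1.5 times. The 0 genes of the interaction became 2 in the Cry1 knockdown without the filter and 0 to 7 with a library left out, and 0 to 1 in the Cry2 knockdown with a library left out. The cause of these shifts was not tested. Calls over all genes under these alternatives are not given here, except for days 3 and 5 only. The shifts are therefore not read as particular to the 30 genes. The interaction could not be fitted without a day 0 library of the control or of that knockdown. The median ratios within a day moved by less than 0.1 on the log2 scale with another prior count or scaling. The day term of the additive fit compares genotypes within each day.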
